A study of Mus musculus with 7 samples.

Results

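Kcna2, Kcna3, Kcnn4, Orai1, Orai2, Stim1 and Stim2 encode potassium channels and components of store-operated calcium entry. T cells sustain calcium signals through store-operated calcium entry, with the potassium channels of Kcna3 and Kcnn4. These 7 genes were followed across 7 Affymetrix arrays of sorted mouse CD4+ T cells, among 18193 genes with a probe set of their own. Members were taken by gene symbol, and 15 of the 45037 probe sets on the array were annotated to 1 of these genes and to no other. Each gene was represented by its brightest probe set over the 7 arrays, and the other 8 probe sets are given beside it. The genes were selected on measured values of these same arrays, among them the difference of Kcna2 between the mutant groups. Their values below are therefore a description, and no test is given for them.

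The study compared 3 genotypes of male mice aged 3 weeks. B6 denotes C57BL/6 mice, with 1 array from the pooled cells of a pair of mice. Sf denotes scurfy mice (B6.Cg-Foxp3sf/J), which carry the sf mutation of Foxp3, the transcription factor that specifies regulatory T cells, with 3 arrays. Sf.Il2-/- denotes scurfy mice that also carried a null Il2 gene (B6.129P2-Il2tm1Hor/J), with 3 arrays. The labels call the arrays within a mutant group biological replicates. All 3 groups were sampled from peripheral lymph nodes, in which cells bearing B220, CD8, CD11b, CD11c or NK1.1 were depleted before CD3+ CD4+ cells were sorted.

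Kcna2 and Kcna3 encode pore-forming subunits of voltage-gated potassium channels of the Shaker family (Kv1.2 and Kv1.3), and Kcnn4 encodes the calcium-activated potassium channel KCa3.1. Potassium efflux through Kv1.3 and KCa3.1 keeps the T cell membrane negative and so preserves the driving force for calcium. After antigen receptor signalling empties the endoplasmic reticulum, its calcium sensors STIM1 and STIM2 open the plasma membrane channel formed by ORAI1 and its relatives, and the calcium that enters activates calcineurin and the transcription factor NFAT. NFAT drives Il2, and Kv1.3 and KCa3.1 are known for their roles in effector and autoreactive T cells.

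The arrays did not form tight groups, and this touches every comparison below. Array medians of log2(intensity + 1) lay between 4.92 and 5.06, and the upper quartiles of intensity between 110 and 145. Correlation over dim probe sets placed the third replicate of each mutant group beside the B6 array (set 2), apart from replicates 1 and 2 of both (set 1), an uncertain division that the labels do not name. Foxp3 on the log2 scale was 7.25 in B6, between 5.87 and 6.32 in Sf, and between 4.20 and 4.41 in Sf.Il2-/-. The Il2 probe set read 5.22 in the B6 array, 5.39, 5.09 and 7.35 in Sf 1, 2 and 3, and 7.17, 8.20 and 7.74 in Sf.Il2-/- 1, 2 and 3. Where this probe set lies relative to the disruption of Il2 is not given in the sources used here, so it does not check the genotype. All 6 CD4 T cell markers on the array were tested, and their summed intensity was 15900 in B6, 8210 to 11300 in Sf and 13000 to 14700 in Sf.Il2-/-. These are bulk samples, so fewer cells of a type and less RNA per cell cannot be told apart.

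The 250 bases before the annotated start of each gene were read from RefSeq (GRCm38.p6), where all 7 genes matched, and are written 5′ to 3′ on the gene's strand. The windows of Kcna2 (chr3:107101317-107101566, plus strand) and Kcna3 (chr3:107035912-107036161, plus strand) are shown because these genes are consecutive protein-coding genes of 1 potassium channel cluster, of which Kcna2 separated the mutant groups and Kcna3 did not. The window of Orai2 (chr5:136170657-136170906, minus strand) is shown for the gene with the largest difference between Sf and B6, with that of Orai1 (chr5:123014824-123015073, plus strand) for comparison. Capitals mark matches, on either strand, to the NFAT core GGAAA or to the STAT element TTCNNNGAA, the sites of the factors downstream of calcium and of the IL-2 receptor.

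Kcna2: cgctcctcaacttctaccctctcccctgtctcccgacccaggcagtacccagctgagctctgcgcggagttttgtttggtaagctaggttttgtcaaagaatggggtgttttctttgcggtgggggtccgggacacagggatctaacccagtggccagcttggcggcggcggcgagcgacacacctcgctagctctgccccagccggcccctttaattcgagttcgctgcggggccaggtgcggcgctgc
Kcna3: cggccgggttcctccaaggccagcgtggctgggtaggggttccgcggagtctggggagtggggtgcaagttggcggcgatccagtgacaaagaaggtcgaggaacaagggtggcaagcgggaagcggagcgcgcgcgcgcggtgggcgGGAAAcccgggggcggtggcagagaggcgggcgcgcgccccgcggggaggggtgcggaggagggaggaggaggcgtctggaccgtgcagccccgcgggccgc
Orai2: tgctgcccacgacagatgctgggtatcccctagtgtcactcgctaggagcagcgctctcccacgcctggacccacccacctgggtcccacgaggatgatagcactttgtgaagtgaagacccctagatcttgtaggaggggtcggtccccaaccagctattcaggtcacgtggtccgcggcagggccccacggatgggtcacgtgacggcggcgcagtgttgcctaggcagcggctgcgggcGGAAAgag
Orai1: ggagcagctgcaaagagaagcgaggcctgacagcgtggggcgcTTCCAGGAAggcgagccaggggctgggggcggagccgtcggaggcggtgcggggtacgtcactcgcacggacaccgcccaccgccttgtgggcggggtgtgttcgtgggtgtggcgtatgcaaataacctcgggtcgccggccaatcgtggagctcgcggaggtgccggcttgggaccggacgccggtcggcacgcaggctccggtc

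Kcna3 held 1 NFAT core, 102 bases before the start, and Orai2 held 1, 8 bases before it. Orai1 held 1 STAT element, 207 bases before its start. No match to either motif was found in the windows of Kcna2, Kcnn4, Stim1 and Stim2. The NFAT core is common, with a match in 55.6% of 32851 windows of this length over all genes, against 7.02% for the STAT element. The 2 motifs did not overlap in the windows shown. Kcna2 and Kcna3 had GC contents of 62.4% and 74.4%, above the median of 52.4% over all windows. A match describes these letters only and is no measure of binding. Kcna2 and Kcna3 are followed on chromosome 3 by Kcna10. Il2 lies on the same chromosome, 584 protein-coding genes away from Kcna2.

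Among the potassium channel genes, Kcna2 was the member that separated the mutant groups. Its brightest probe set (1457911_at) read 5.01 on the log2 scale in B6, 5.05, 4.86 and 5.49 in Sf 1, 2 and 3, and 6.72, 6.51 and 6.87 in Sf.Il2-/- 1, 2 and 3. All 3 Sf.Il2-/- arrays lay above the other 4, and B6 lay within the range of Sf. As intensities, the Sf.Il2-/- arrays read 104, 90.4 and 116, against 28 to 43.9 in Sf and 31.2 in B6. The group means were 5.13 ± 0.32 (SD, n = 3) in Sf and 6.70 ± 0.18 (SD, n = 3) in Sf.Il2-/-. The difference between them was 1.57 ± 0.24 (SE of the fit over all genes), or 2.97-fold. Against B6 the difference was 1.69 ± 0.34 for Sf.Il2-/- and 0.12 ± 0.34 for Sf. In B6 and Sf the probe set stood near the median of the array. No detection calls were used, so whether the transcript was present there was not measured.

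**Figure D1:**
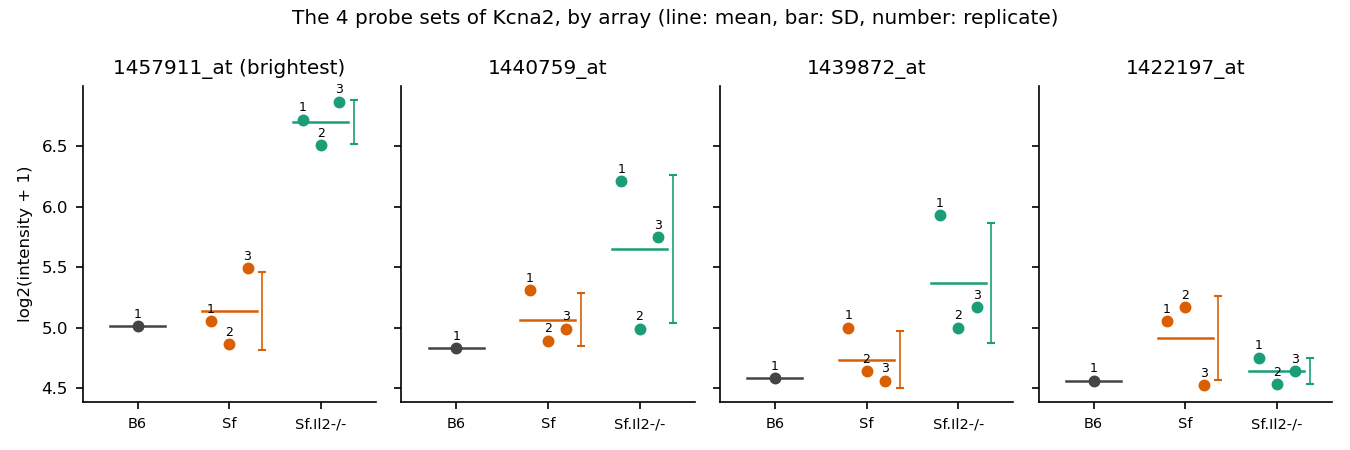
Each panel plots log2(intensity + 1) of 1 of the 4 probe sets of Kcna2 in the B6, Sf and Sf.Il2-/- arrays, with points for arrays numbered by replicate, lines for group means and bars for the SD of 3 arrays. The Sf.Il2-/- arrays stand apart at the brightest probe set, at 6.51 to 6.87, and lie within the range of Sf at 1422197_at, at 4.53 to 4.75.

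The other 3 probe sets of Kcna2 did not repeat this separation in full. At 1440759_at the values were 4.83 in B6, 5.31, 4.89 and 4.99 in Sf 1, 2 and 3, and 6.21, 4.99 and 5.75 in Sf.Il2-/- 1, 2 and 3. Here Sf.Il2-/- 2 lay among the Sf arrays, and the difference of means was 0.59. At 1439872_at the B6 array read 4.58, the Sf arrays 4.56 to 5.0, and the Sf.Il2-/- arrays 5.0, 5.17 and 5.93, so that the highest Sf array and the lowest Sf.Il2-/- array met. The difference of means was 0.64. At 1422197_at, the probe set annotated to the RefSeq transcript, the values were 4.56 in B6, 5.05, 5.17 and 4.52 in Sf 1, 2 and 3, and 4.75, 4.53 and 4.64 in Sf.Il2-/- 1, 2 and 3. The groups overlapped and the difference of means was -0.28, the opposite direction. The plot of the 4 probe sets shows that the size of the Kcna2 difference depended on which one was read. Averaged over its probe sets, the gene differed by 0.63 between the mutant groups.

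Kcna3, the main voltage-gated potassium channel gene of T cells, had 1 probe set and no separation of groups. It read 7.71 in the B6 array, 7.36, 6.85 and 8.07 in Sf 1, 2 and 3, and 7.95, 7.60 and 7.93 in Sf.Il2-/- 1, 2 and 3. Sf 3 was the highest of all arrays and Sf 2 the lowest, so the Sf arrays alone spanned every other value. The difference was 0.40 ± 0.30 for Sf.Il2-/- against Sf, -0.28 ± 0.42 for Sf against B6 and 0.12 ± 0.42 for Sf.Il2-/- against B6. Each was within 1.5 times its standard error. Its neighbour Kcna2 differed by 1.57 in the first of these comparisons.

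Kcnn4, the calcium-activated partner, was brightest in B6 at both of its probe sets. The main probe set (1435945_a_at) read 11.27 in the B6 array, 10.14, 9.94 and 10.54 in Sf 1, 2 and 3, and 10.84, 10.52 and 10.48 in Sf.Il2-/- 1, 2 and 3. Every mutant array lay below B6, while Sf 3 lay within the range of Sf.Il2-/-. B6 exceeded the Sf mean 2.09-fold, a log2 difference of -1.07 ± 0.28 for Sf against B6. For Sf.Il2-/- against B6 the difference was -0.66 ± 0.28, and between the mutant groups 0.41 ± 0.20. The second probe set (1421038_a_at) read 10.20 in B6, 8.91 to 9.84 in Sf and 9.62 to 9.67 in Sf.Il2-/-, with a difference of -0.89 for Sf against B6.

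**Figure D2:**
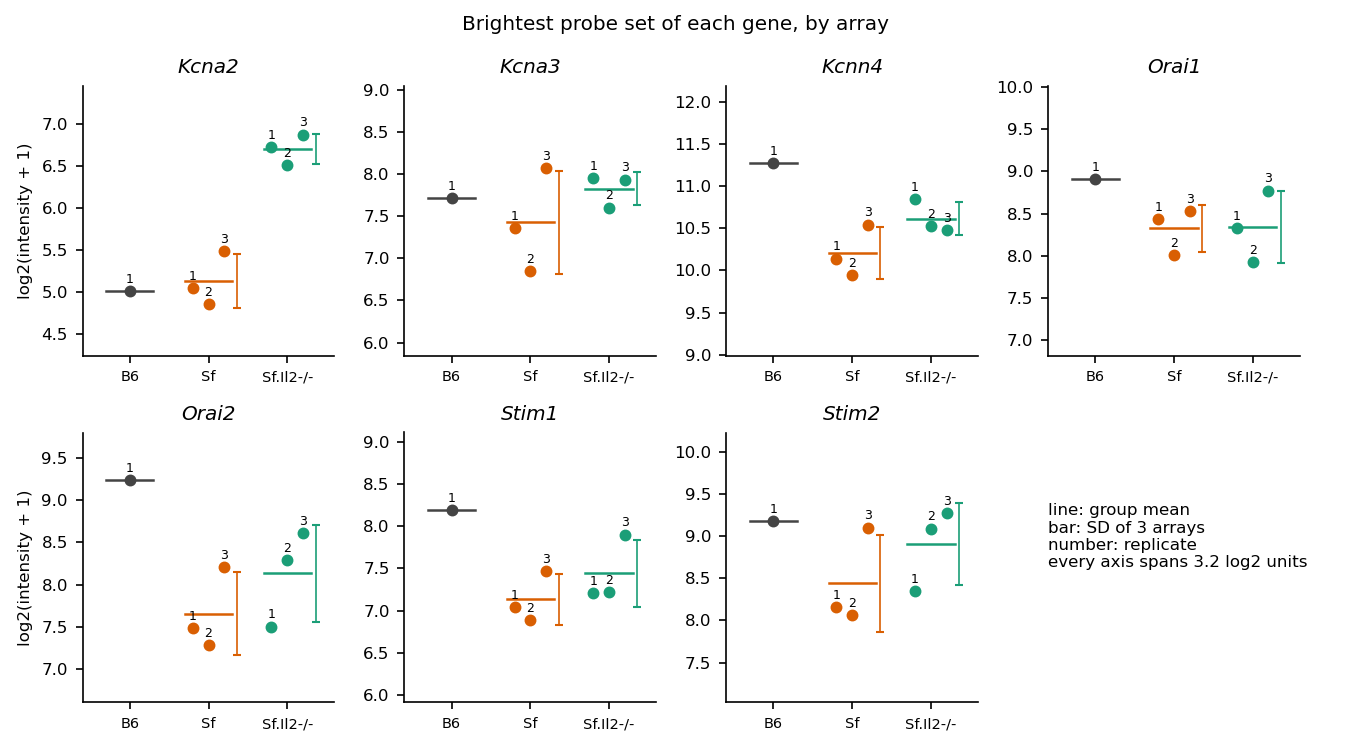
Each panel plots log2(intensity + 1) at the brightest probe set of 1 of the 7 genes in the B6, Sf and Sf.Il2-/- arrays, with points numbered by replicate, lines for group means, bars for the SD of 3 arrays and the same span on every axis. Kcna2 is high in Sf.Il2-/- at 6.51 to 6.87, and Kcnn4, Orai1, Orai2 and Stim1 are highest in the single B6 array.

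The calcium release-activated channel genes were lower in the mutant arrays than in B6, with a larger difference at Orai2 than at Orai1. Orai1 encodes the principal pore subunit in T cells, and Orai2 a related subunit that can join it. Orai2 (1434762_at) read 9.24 in the B6 array, 7.48, 7.28 and 8.21 in Sf 1, 2 and 3, and 7.50, 8.29 and 8.61 in Sf.Il2-/- 1, 2 and 3. All 6 mutant arrays lay below B6, and the mutant groups overlapped each other. B6 exceeded Sf 2.99-fold and Sf.Il2-/- 2.15-fold, with log2 differences of -1.58 ± 0.47 and -1.10 ± 0.47. The second probe set of Orai2 gave -1.42 and -1.02, with 8.74 in B6 against 6.99 to 7.87 in Sf and 7.32 to 8.11 in Sf.Il2-/-.

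Orai1 (1424990_at) read 8.91 in the B6 array, 8.43, 8.01 and 8.53 in Sf 1, 2 and 3, and 8.33, 7.92 and 8.77 in Sf.Il2-/- 1, 2 and 3. The mutant groups covered the same range below B6, with a difference between them of 0.01 ± 0.26. The differences from B6 were -0.59 ± 0.37 for Sf and -0.57 ± 0.37 for Sf.Il2-/-. At its dimmer probe set (1424989_at), which was annotated to the same clone, the values were 6.51 in B6, 5.80, 5.24 and 6.63 in Sf 1, 2 and 3, and 6.41, 5.92 and 6.80 in Sf.Il2-/- 1, 2 and 3. There Sf 3 and Sf.Il2-/- 3 exceeded B6. Orai3, the remaining gene of the family, was named here outside the rule for named genes. It differed from B6 by -0.10 in Sf and by 0.61 in Sf.Il2-/-, and by 0.71 between the mutant groups. None of these differences passed.

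The calcium sensor genes followed the same order, with Stim1 below B6 in every mutant array and Stim2 not. Stim1 (1448320_at), the sensor that opens ORAI1 after store depletion, read 8.19 in the B6 array, 7.04, 6.89 and 7.47 in Sf 1, 2 and 3, and 7.21, 7.22 and 7.90 in Sf.Il2-/- 1, 2 and 3. B6 exceeded Sf 2.08-fold, a difference of -1.05 ± 0.36, and the difference for Sf.Il2-/- was -0.75 ± 0.36. The mutant groups overlapped, and differed by 0.31 ± 0.26. The second probe set (1436945_x_at) did not show this, with 5.57 in B6, 5.57 to 5.83 in Sf and 5.45 to 6.11 in Sf.Il2-/-.

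Stim2 (1434219_at) encodes the sensor that responds to smaller falls of store calcium. It read 9.18 in the B6 array, 8.16, 8.06 and 9.10 in Sf 1, 2 and 3, and 8.35, 9.09 and 9.27 in Sf.Il2-/- 1, 2 and 3. Sf 3 and Sf.Il2-/- 2 were close to B6 and Sf.Il2-/- 3 was above it. The differences were -0.74 ± 0.47 for Sf against B6, -0.27 ± 0.47 for Sf.Il2-/- against B6, and 0.47 ± 0.33 between the mutant groups. The dim second probe set (1441024_at) ran the other way, with 4.87 in B6, 5.99, 5.90 and 4.58 in Sf 1, 2 and 3, and 5.23, 5.46 and 4.88 in Sf.Il2-/- 1, 2 and 3.

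**Figure D3:**
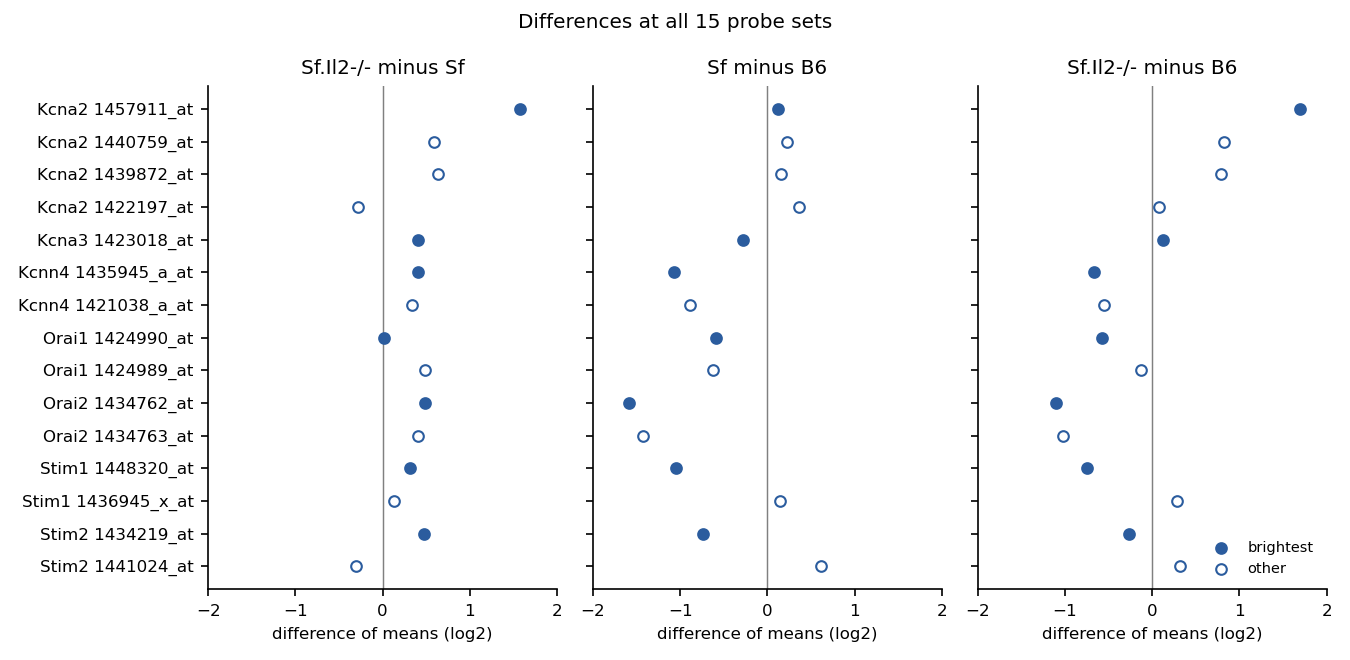
Each row is 1 of the 15 probe sets of the 7 genes, and each panel plots the difference of group means in log2 units for 1 comparison, with filled points for the brightest probe set of a gene and open points for the others. Kcnn4 and Orai2 agree between their probe sets in every panel, while Kcna2, Stim1 and Stim2 have a probe set on the other side of 0 in at least 1 panel.

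Over the whole array, Sf.Il2-/- against Sf was the comparison with the fewest changed genes. The limma fit over 11460 genes, in which all 7 members passed the filter on dim probe sets, called 32 genes at an adjusted p of 0.05, or 0.279%, with 5 higher and 27 lower in Sf.Il2-/-. With the replicate number as a block it called 60, 15 higher and 45 lower. For Sf against B6 the fit called 283 genes, or 2.47%, with 150 higher and 133 lower. For Sf.Il2-/- against B6 it called 308 genes, or 2.69%, with 171 higher and 137 lower. Of the calls, 53.0% were higher in Sf and 55.5% in Sf.Il2-/-, against 70.6% and 66.9% after quantile normalization. With arrays centred on their medians they were 47.8% and 62.7%. They were 44.6% and 49.6% with a pseudocount of 16, and 46.5% and 52.2% with a filter at 6. Without Sf 3 these shares were 20.2% and 34.8%, so that most calls were then lower than B6. For Sf.Il2-/- against Sf the share higher was 15.6% of 32 calls, and without Sf 3 it was 77.1% of 872 calls, the opposite balance. The comparisons with B6 share 1 control array, whose own spread was not measured and was assumed equal to that of the mutant arrays.

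The low values in the mutant arrays were shared with much of the array. All 3 Sf arrays lay below B6 in 5 of the 7 genes, Kcnn4, Orai1, Orai2, Stim1 and Stim2, against 46.9% of all genes tested. For Sf.Il2-/- this held for Kcnn4, Orai1, Orai2 and Stim1, 4 of the 7, against 44.5%. All 6 mutant arrays lay below B6 in the same 4, against 37.3% of all genes. The Sf.Il2-/- arrays all exceeded the Sf arrays at Kcna2 alone, 1 of 7, against 8.39%. The median difference over the 7 genes was -0.74 for Sf against B6, -0.57 for Sf.Il2-/- against B6 and 0.41 between the mutant groups, beside -0.25, -0.14 and 0.08 over all genes. Relative to the median of all genes, Sf differed from B6 by -1.34 at Orai2, -0.82 at Kcnn4, -0.81 at Stim1, -0.49 at Stim2, -0.34 at Orai1 and -0.03 at Kcna3.

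The size of these differences depended on which Sf arrays were used. Without Sf 3, Sf differed from B6 by -1.86 at Orai2, -1.23 at Kcnn4 and -1.22 at Stim1. At Stim2, Orai1 and Kcna3 the differences were then -1.07, -0.69 and -0.60. Without Sf 2 they moved the other way, to -1.39 at Orai2, -0.93 at Kcnn4 and -0.93 at Stim1. Those at Stim2, Orai1 and Kcna3 were then -0.55, -0.43 and 0.01. The fit without Sf 3 called 3523 genes, or 30.0% of those tested. Against B6 within its own array set, Sf 3 alone differed by -1.03 at Orai2, -0.73 at Kcnn4, -0.71 at Stim1, -0.38 at Orai1 and -0.08 at Stim2, while Kcna3 and Kcna2 lay above B6 by 0.36 and 0.48. Quantile normalization moved the median of all genes in this comparison from -0.25 to 0.03. It brought Kcnn4 to -0.40, Orai1 to -0.20, Stim2 to -0.34 and Kcna3 to -0.02, and left Orai2 at -1.22 and Stim1 at -0.78.

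Cd4 was also highest in the B6 array, as Kcnn4, Orai1, Orai2 and Stim1 were at their brightest probe sets. It read 11.27 in the B6 array, 9.72, 9.44 and 10.71 in Sf 1, 2 and 3, and 10.26, 10.46 and 11.07 in Sf.Il2-/- 1, 2 and 3. Over Sf.Il2-/- 1, 2 and 3 Cd4 rose, and so did Orai2, Stim1 and Stim2 at their brightest probe sets. Kcnn4 fell there at its brightest probe set, while Kcna2, Kcna3 and Orai1 were lowest in Sf.Il2-/- 2. Cd5 read 11.35 in B6, 9.72 to 10.65 in Sf and 10.85 to 10.99 in Sf.Il2-/-. Cd28 read 11.29 in B6, 10.53 to 10.74 in Sf, and 11.38, 11.16 and 10.90 in Sf.Il2-/- 1, 2 and 3. Cd3e read 10.63 in B6, 9.47 to 9.93 in Sf and 10.06 to 10.69 in Sf.Il2-/-, and Cd3d lay between 11.20 and 11.75 and Cd3g between 11.04 and 11.85 over all 7 arrays. The part of these markers, and of the array sets, in the low values of the channel genes was not tested.

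**Figure D4:**
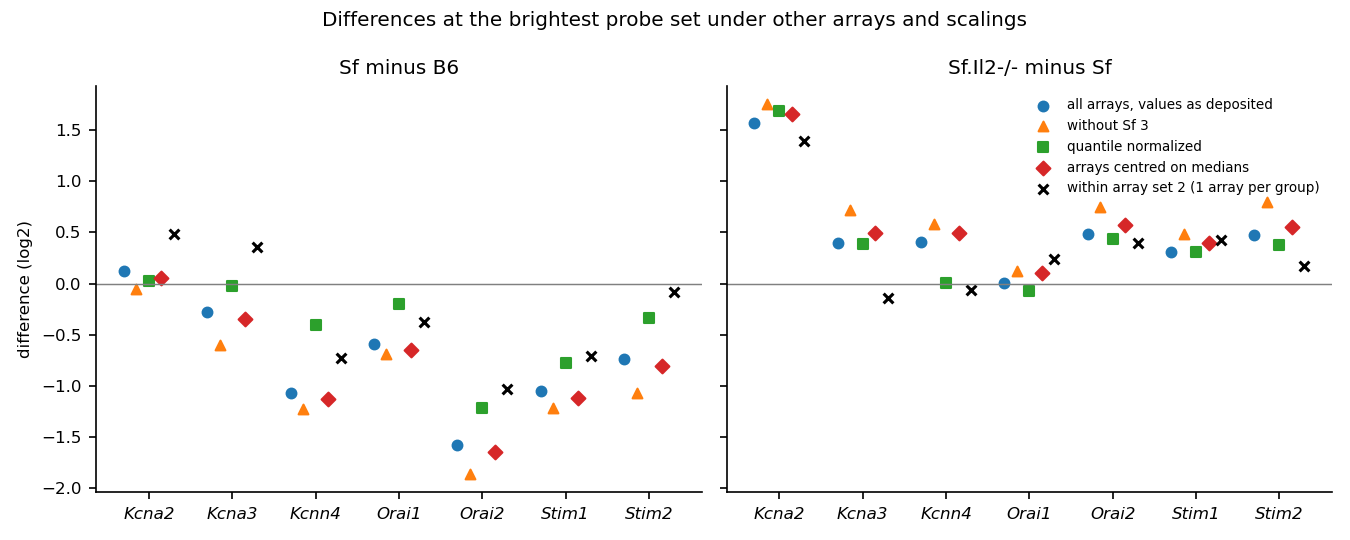
Points give the log2 difference at the brightest probe set of each of the 7 genes, for Sf against B6 and for Sf.Il2-/- against Sf, with all arrays, without Sf 3, after quantile normalization, after centring arrays on their medians, and within array set 2 with 1 array per group. Orai2 stays between -1.86 and -1.03 in the first panel and Kcna2 between 1.39 and 1.75 in the second, while Kcna3 changes sign in both.

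Between the mutant groups, the Kcna2 difference was 1.66 within array set 1 (2 arrays per group) and 1.39 within set 2 (1 array per group). No other member had a difference of that size in either set. The genes were selected with the Kcna2 difference in these same arrays known, so the sets, whose division is uncertain, do not repeat it independently. Kcna3 gave 0.67 and -0.14, Kcnn4 0.64 and -0.06, and Stim2 0.61 and 0.17. Orai2 gave 0.52 and 0.40, Stim1 0.25 and 0.43, and Orai1 -0.10 and 0.24.

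Genes with the profile most like that of each member were sought over the 7 arrays, by the root mean square difference of profiles centred on their own means. For Kcna2 these were Cd68, a lysosomal protein gene used as a macrophage marker, at 0.16 log2 units, Sh2d1a, which encodes the signalling adaptor SAP, at 0.22, and Cd160, a receptor gene of cytotoxic lymphocytes, at 0.28. Cd68 read 5.03 in the B6 array, 4.73, 4.77 and 5.32 in Sf 1, 2 and 3, and 6.20, 6.33 and 6.74 in Sf.Il2-/- 1, 2 and 3. Of the 7 monocyte and macrophage markers, 6 exceeded 5 in some array, and their summed intensity was 803 in B6, 577 to 865 in Sf and 545 to 1120 in Sf.Il2-/-. Csf1r read 9.35 in B6, 8.63 to 9.27 in Sf, and 9.49, 9.48 and 8.36 in Sf.Il2-/- 1, 2 and 3. Lyz2 read 4.02 in B6, 4.27 to 5.76 in Sf, and 4.4, 7.02 and 4.15 in Sf.Il2-/- 1, 2 and 3. C1qb read 5.09 in B6, 5.36 to 6.16 in Sf, and 6.45, 6.52 and 5.31 in Sf.Il2-/- 1, 2 and 3. Adgre1 lay at 5.12 to 6.09, Cd14 at 4.22 to 5.28 and C1qa at 1.58 to 4.71 over all arrays. Csf1r and C1qb were thus highest in Sf.Il2-/- 1 and 2, and Lyz2 in Sf.Il2-/- 2. Of 3 NK cell markers on the array, Eomes alone was above 5, at 6.94 in B6, 7.29 to 8.46 in Sf and 8.82 to 9.90 in Sf.Il2-/-, while Ncr1 lay at 2.14 to 3.12. The part of other cell types in the Kcna2 values was not tested.

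For Orai2 the closest profiles were those of Arhgap9 (0.11), Pik3cd (0.12), which encodes the leukocyte catalytic subunit of phosphoinositide 3-kinase, and Pbxip1 (0.14). Pik3cd read 11.15 in the B6 array, 9.25, 9.03 and 10.33 in Sf 1, 2 and 3, and 9.52, 10.17 and 10.47 in Sf.Il2-/- 1, 2 and 3. For Stim1 they were Clcn4, a chloride-proton exchanger gene, at 0.05, Puf60 at 0.06 and Txndc16 at 0.07. For Stim2 they were Pstpip1 (0.09), Tha1 (0.11) and Smad3 (0.11). For Kcnn4 they were Atp6v1d, a subunit gene of the vacuolar proton pump, at 0.07, Nap1l4 at 0.08 and Uimc1 at 0.09, and for Kcna3 Mcm4, a replicative helicase gene, at 0.07, Spata24 at 0.08 and Ndufab1 at 0.09. Orai1, whose arrays spanned less than 1 log2 unit, was not searched. All members and genes share the same 7 arrays, and such likeness is a description.

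The rest of the pathway was read from 6 lists with 129 tested genes. Between the mutant groups limma called 0 of the 129, beside 0.279% of all genes tested. At an unadjusted p under 0.05 it counted 908 of all 11460 genes, and list genes were not counted at that level. For Sf against B6 it called 1 list gene higher and 4 lower, 3.88% of the list genes, beside 2.47% of all genes. For Sf.Il2-/- against B6 it called 6 lower and none higher, 4.65%, beside 2.69% of all genes. After quantile normalization these splits were 5 higher and 5 lower, and 7 higher and 6 lower. All-gene calls were then 555 and 723 of 11481. Without Sf 3, list calls numbered 14 of 131 between the mutant groups, 55 in Sf against B6 and 27 in Sf.Il2-/- against B6. Over all 11737 genes then tested, the calls numbered 872, 3523 and 1541.

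Of the Kcn family, 25 of 81 genes on the array were tested, with a median difference of 0.09 for Sf against B6. Kcnk5, a two-pore-domain potassium leak channel gene, rose in Sf by 1.79 ± 0.39 (limma, adjusted p = 0.0462). It read 5.41 in the B6 array, 7.04, 6.91 and 7.66 in Sf 1, 2 and 3, and 6.43, 6.64 and 7.19 in Sf.Il2-/- 1, 2 and 3, above B6 in all 6 mutant arrays. Its second probe set differed by 1.34. The difference in Sf.Il2-/- was 1.34 and did not pass (adjusted p = 0.115). Kcnip3, a calcium-binding channel-interacting protein gene, had the lowest p of the family between the mutant groups, with a difference of 1.80 that did not pass (limma, adjusted p = 0.398). It was dim, at 2.91 in B6 with means of 3.28 in Sf and 5.08 in Sf.Il2-/-, and reached the filter only through Sf.Il2-/-.

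Of 12 regulators of potassium channels, 9 were below B6 in Sf and 9 in Sf.Il2-/-, counted separately, beside 65.3% and 60.3% of all genes tested, with medians of -0.74 in Sf and -0.62 in Sf.Il2-/-. Nedd4l, a ubiquitin ligase gene that controls ion channel turnover, fell in Sf.Il2-/- by 2.17 ± 0.42 on the log2 scale (limma, adjusted p = 0.0325). It read 7.93 in B6, 6.0 to 6.33 in Sf and 5.39 to 6.46 in Sf.Il2-/-. In Sf the difference was -1.80 (limma, adjusted p = 0.0583). Its other probe sets, all dimmer, differed from B6 in Sf.Il2-/- by -0.43, -1.85, -1.65, -0.73 and -1.61. Its relative Nedd4 had the lowest p of the list between the mutant groups, at -0.35 (adjusted p = 0.784).

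Among 19 other genes of calcium entry, Saraf encodes the brake on STIM1 that limits store-operated calcium entry. It fell in Sf by 1.32 ± 0.21 (limma, adjusted p = 0.0148). It read 11.88 in the B6 array, 10.59, 10.51 and 10.59 in Sf 1, 2 and 3, and 11.07, 11.37 and 11.15 in Sf.Il2-/- 1, 2 and 3. The Sf.Il2-/- arrays all lay above the Sf arrays, as in 8.39% of all genes tested. The difference of 0.63 ± 0.15 between the mutant groups did not pass over all genes (limma, adjusted p = 0.197). After quantile normalization Saraf differed from B6 by -0.80 in Sf and did not pass. Cacna2d4, an auxiliary subunit gene of voltage-gated calcium channels, fell in Sf.Il2-/- by 1.73 ± 0.38 (limma, adjusted p = 0.0481), and its second probe set, at 6.84 in B6, differed by -1.47. The remaining dim one, at 1.64 to 3.40 over all arrays, differed by 1.17.

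Among 25 genes of calcium stores, pumps and mitochondria, Itpkb, a kinase gene that phosphorylates inositol trisphosphate, fell in Sf by 1.69 ± 0.37 (limma, adjusted p = 0.0493). Its second probe set differed by -0.97. Itpr3, a gene of the receptor that releases store calcium, fell in Sf.Il2-/- by 1.30 ± 0.27 (limma, adjusted p = 0.0422), from 8.55 in B6 to 7.07, 7.21 and 7.47. Ryr1, another calcium release channel gene, differed by 1.66 between the mutant groups and did not pass (adjusted p = 0.452). It read 3.95 in B6, with means of 4.42 in Sf and 6.08 in Sf.Il2-/-, and so reached the filter only through Sf.Il2-/-. Its dimmer probe set differed by 0.10. The median of this list was -0.49 in Sf and -0.14 in Sf.Il2-/-.

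Among 28 genes of calmodulin, calcineurin and NFAT, Rcan3, a calcineurin regulator gene, fell in Sf.Il2-/- by 1.54 ± 0.30 (limma, adjusted p = 0.0341), and differed by -1.36 in Sf (adjusted p = 0.0516). It read 8.67 in B6 against 6.97 to 7.53 in Sf and 6.98 to 7.29 in Sf.Il2-/-. Its second probe set differed from B6 by -0.68 in Sf.Il2-/- and by -0.44 in Sf. The list's medians were -0.47 in Sf and -0.36 in Sf.Il2-/-. Between the mutant groups the lowest p was that of Csnk1a1, a kinase gene that acts on NFAT, at 0.52 (adjusted p = 0.412). Its other probe sets differed by 0.44, -0.21, -0.52 and -0.23.

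The 20 chloride, sodium and proton channel and pump genes held the largest falls that passed in Sf against B6, with list medians of -0.62 in Sf and -0.59 in Sf.Il2-/-. Atp1b1, the beta subunit gene of the sodium-potassium pump, read 10.02 in the B6 array, 7.91, 8.03 and 7.40 in Sf 1, 2 and 3, and 7.98, 8.20 and 8.28 in Sf.Il2-/- 1, 2 and 3. It fell by 2.24 ± 0.32 in Sf (limma, adjusted p = 0.0107) and fell by 1.87 ± 0.32 in Sf.Il2-/- (adjusted p = 0.0201). Slc12a7, a potassium-chloride cotransporter gene, read 10.36 in the B6 array, 8.37, 8.09 and 8.53 in Sf 1, 2 and 3, and 7.99, 8.37 and 8.38 in Sf.Il2-/- 1, 2 and 3. It fell by 2.03 ± 0.31 in Sf (limma, adjusted p = 0.0127) and fell by 2.11 ± 0.31 in Sf.Il2-/- (adjusted p = 0.0108). Within array set 2 the differences from B6 were -2.62 and -1.74 for Atp1b1 and -1.83 and -1.98 for Slc12a7. Atp1b3, a related pump subunit gene, differed by 0.47 between the mutant groups and did not pass (adjusted p = 0.375). Both Atp1b1 and Slc12a7 passed in all 14 alternatives for Sf. For Sf.Il2-/- Slc12a7 passed in 14 and Atp1b1 in 11, and the other list genes above that passed lost the call in 2 to 9 of 14. Their highest adjusted p over these alternatives was 0.0916 for Kcnk5, 0.107 for Saraf, 0.122 for Itpkb, 0.204 for Nedd4l, 0.38 for Cacna2d4, 0.133 for Itpr3 and 0.104 for Rcan3. Without Sf 1 the calls of Kcnk5, Saraf and Itpkb in Sf ended, as did those of Cacna2d4, Itpr3 and Rcan3 in Sf.Il2-/-, and without Sf 2 those of Itpkb and Itpr3. Without Sf.Il2-/- 1 or Sf.Il2-/- 2 the calls of Kcnk5 and Itpkb in Sf ended, and Slc12a7 alone passed in Sf.Il2-/-. Without Sf.Il2-/- 3 those of Cacna2d4, Itpr3 and Rcan3 ended. With the mean of probe sets the calls of Kcnk5 and Itpkb in Sf ended, as did those of Nedd4l, Cacna2d4 and Rcan3 in Sf.Il2-/-.

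**Figure D5:**
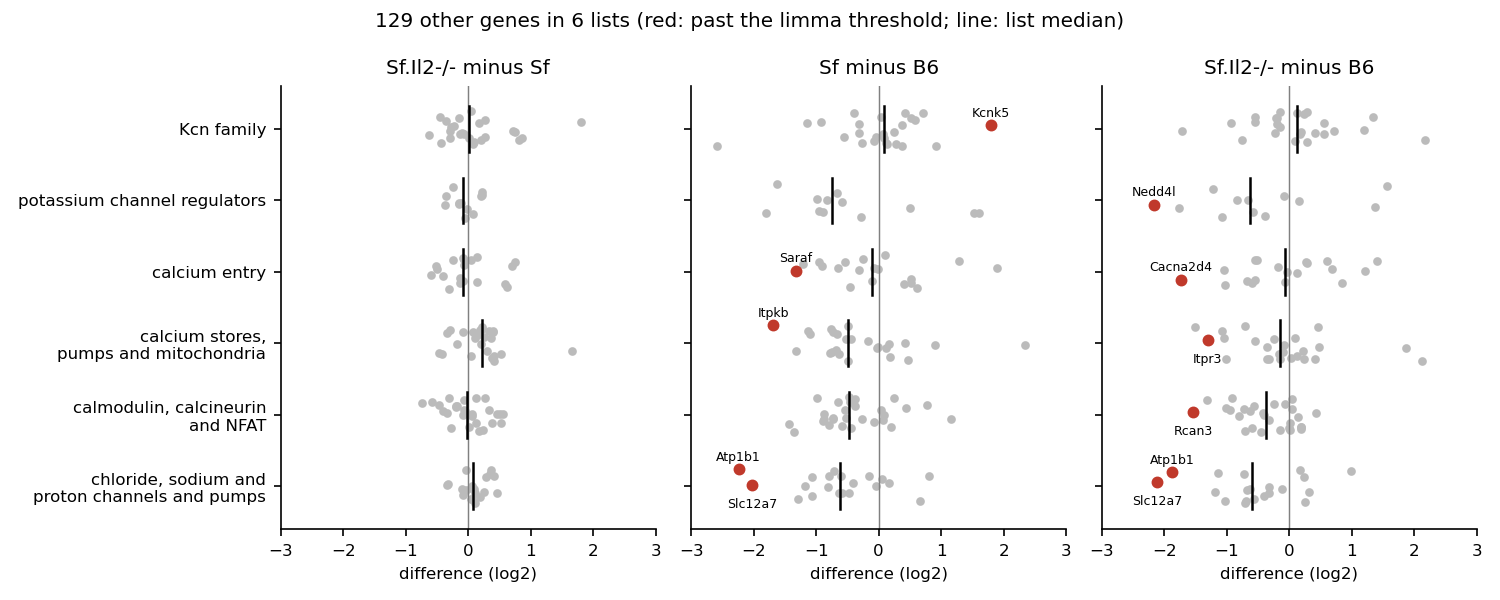
Each point is 1 of the 129 list genes, placed by its log2 difference in 1 of the 3 comparisons, with 1 row for each list, red points for genes past the limma threshold and a line at the list median. No gene is red between the mutant groups, 1 red gene lies above 0 and 4 below in Sf against B6, and 6 lie below 0 in Sf.Il2-/- against B6.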

How the data were processed

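The deposited table holds the authors' processed intensity of each probe set on a linear scale, for 7 arrays. The submitters' processing notes name GCRMA and GCOS, without version, order or parameters. Values were taken as log2(intensity + 1). By the array annotation 34945 of 45037 probe sets named 1 gene, 932 named several and 9160 named none. Current RefSeq symbols (GRCm38.p6) were found through Entrez numbers for 34741 of those naming 1 gene. The brightest probe set stood for its gene, and a gene was tested where any group mean reached 5. The test was limma 3.58.1 (R 4.3.3), with lmFit on 3 group means over all arrays and eBayes with a trend. It had 4 residual degrees of freedom (9.57 in total), and p-values were adjusted over all genes by Benjamini-Hochberg, with calls at 0.05. The script was tested on simulated data. Figures were drawn with matplotlib 3.10.9.

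The members and gene lists were chosen with earlier results of these data known. Named besides the members were Il2 and Foxp3, per list and comparison up to 4 genes past the threshold (otherwise the lowest p), and 3 genes most like each member that spanned over 1 log2 unit. Cd4, Cd3d and other marker genes come from lists of cell type markers.

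Mutant arrays of the same replicate number deviated together from their group means, with correlations of 0.301, 0.211 and 0.505. The titles give only numbers, and replicates 1 and 2 correlated with another number at up to 0.333, above their same-number values. The main fit therefore used no pairing. Replicate number entered as a block only in an alternative fit of Sf.Il2-/- against Sf. Array sets came from clustering 14762 dim probe sets (mean under 4). Correlations within a set reached down to 0.553, and between sets up to 0.554. The number of arrays limits the precision.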

Additional observations from a re-analysis of the deposited data

How the results depend on the processing

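Each difference of a member kept its direction in the alternatives run, except that of Orai1 between the mutant groups, of Kcna2 and Kcna3 in Sf against B6, and of Stim2 in Sf.Il2-/- against B6, which changed sign in 3, 1, 2 and 3 of them. Within array set 2, Kcna3 and Kcnn4 also turned between the mutant groups, to -0.14 and -0.06. Some differences kept their direction but shrank. After quantile normalization Kcnn4 went from 0.41 to 0.01 between the mutant groups. With the mean of probe sets, Stim1 and Stim2 in Sf against B6 went from -1.05 and -0.74 to -0.45 and -0.06. The replicate block was run only between the mutant groups, where no list gene was called with or without it. Calls against B6 were not examined with this block. With the array set as a block the median of the 7 genes for Sf against B6 was -0.27. The cause was not tested. With 1 B6 array, calls against B6 rest on the spread of the mutant arrays, and 1 array decides several counts.

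Between the mutant groups the 32 calls became 11 with no filter, where more genes were tested, 74 with the array set as a block, 60 with the replicate block, and 8 to 872 when a replicate was left out, the highest without Sf 3. List calls, 0 before, were 1 after quantile normalization and 0 to 14 with a replicate left out. For Sf against B6 the 283 calls became 161 with no filter, 555 after quantile normalization, 188 with the mean of probe sets, 605 with the array set as a block, and 116 (without Sf 1) to 3523 (without Sf 3). The 5 list calls became 3 with no filter, 8 with a filter at 6, 10 after quantile normalization, 3 without a trend, 13 with the array set as a block, and 2 to 55 with a replicate left out. For Sf.Il2-/- against B6 the 308 calls became 138, 723 and 721 with no filter, quantile normalization and the array set block, and 129 to 1541 with a replicate left out. The 6 list calls became 2, 13 and 17, and 1 to 27.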
